A study of Mus musculus with 16 samples.

Results

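The genes described here are the p53 gene with a set of its transcriptional targets and the Ink4 cell-cycle inhibitors, 9 of the 22552 genes in the expression table. They are Trp53, Mdm2, Cdkn1a, Ccng1, Trp53inp1, Bbc3, Bax, Cdkn2a and Cdkn2b. They were chosen by name, as known barriers to reprogramming. The rule used no values, but earlier results of these data were known when it was set. All 9 had a row in the table, and all 9 passed the filter on low values that left 13185 genes for testing.

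RNA was sequenced from 16 mouse cell lines that share the strain 129-M2rtTA and descend from adipocyte progenitor cells (APCs). The APCs came from mice made wholly of induced pluripotent stem cells, so every line carries the same reprogramming factor insertions and the M2rtTA transactivator. AN lines are nuclear transfer embryonic stem cells (ntESCs), derived from blastocysts after an APC nucleus was placed in an enucleated oocyte. AI lines are induced pluripotent stem cells (iPSCs), made by switching the factors on in APCs with doxycycline. The study's tetraploid complementation assay, which asks whether a line can form a whole animal, sorted the AN lines and the newly derived AI lines (AI3, AI7, AI9 and AI10) into fully (F) and partially (P) reprogrammed. GS4, GS9 and GS32 are iPSC lines whose class was known from earlier work and was taken over. The lines were AN1, AN9, AN15 and AN20 in AN F (n = 4), AN2, AN3, AN5, AN6 and AN7 in AN P (n = 5), AI3, AI7, AI10 and GS32 in AI F (n = 4), and AI9, GS4 and GS9 in AI P (n = 3). AN lines were at passages 5 to 7 and the newly derived AI lines at passage 7. The previously identified lines were at passage 6 (GS9), 13 (GS32) and 17 (GS4). No untreated APC or embryo-derived stem cell sample was analysed here. Each line is 1 library, so the line is the replicate and the spread between lines holds clonal, culture and technical differences together.

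The p53 protein is a transcription factor that is kept low by the ubiquitin ligase Mdm2 and rises when DNA is damaged or growth signals are abnormal. It then switches on genes that stop the cell cycle or start cell death, and it also raises Mdm2, which closes a feedback loop. The Ink4 proteins block the cyclin D kinases Cdk4 and Cdk6 and so keep Rb active. Arf, made from the same locus as the Ink4a protein, holds back Mdm2. Both arms are known to limit the yield of reprogrammed cells, and pluripotent stem cells are known for a short G1 phase.

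Sequences near some of these genes that match the p53 consensus are shown first. The mm9 genome was searched within 3000 bases of the annotated 5′ end of each gene for the p53 consensus, which is a pair of half-sites of 10 bases each. A spacer of up to 1 base and at most 1 mismatch outside the fixed C and G of each half-site were allowed. The consensus is palindromic, so a match on either strand is found, and overlap with other motifs was not examined. The sites are printed on the strand of the gene, 5′ to 3′, with the half-sites in capitals and 15 flanking bases on each side.
Cdkn1a, chr17:29227873-29227892, plus strand: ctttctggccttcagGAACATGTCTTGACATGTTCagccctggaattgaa
Ccng1, chr11:40568964-40568983, minus strand: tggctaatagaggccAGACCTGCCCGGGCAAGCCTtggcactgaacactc
Ccng1, chr11:40568438-40568457, minus strand: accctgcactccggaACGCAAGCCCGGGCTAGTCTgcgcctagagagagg
Trp53inp1, chr4:11082259-11082279, plus strand: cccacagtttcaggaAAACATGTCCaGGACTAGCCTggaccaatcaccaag
Cdkn2b, chr4:88954309-88954328, minus strand: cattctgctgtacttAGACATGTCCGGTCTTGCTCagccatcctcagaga

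The Cdkn1a site is centred 42 bases upstream of the outermost annotated start of the gene, that of transcript Cdkn1a-003. Transcripts Cdkn1a-001 and Cdkn1a-002 start further downstream, at chr17:29230717 and chr17:29235152, so the site is farther from those starts. The Ccng1 sites are 160 bases upstream and 366 bases inside the gene, in an intron. The Trp53inp1 site, with 0 mismatches and a spacer of 1 base, is 1309 bases upstream. The Cdkn2b site is 2622 bases inside the gene, in its intron. Thus 4 of the 9 genes (44.4%) had a match, against 5 of 40 other p53 targets (12.5%), 0 of 23 p53 regulators and 385 of the 12953 tested genes whose 5′ end is annotated (2.97%). The 5 other targets were Zmat3, Gdf15, Psrc1, Rps27l and Gtse1. The windows of Trp53, Mdm2, Bbc3, Bax and Cdkn2a held no match under this rule, which says only that these letters were not in those windows. No p53 binding was measured in these samples, and the search rule was set after the windows had been looked at.

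**Figure D1:**
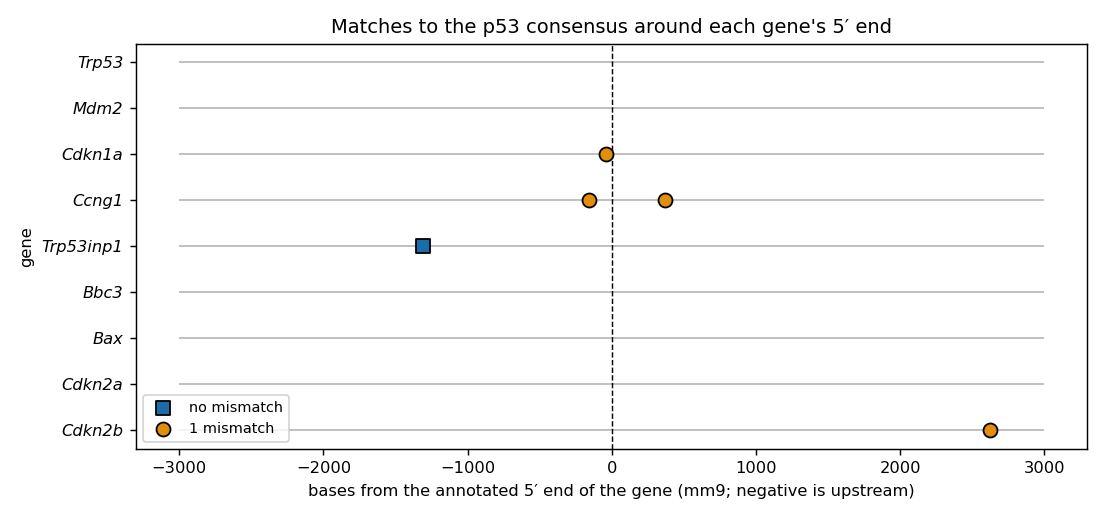
Position of each match to the p53 consensus around the annotated 5′ end of the 9 genes, in bases on the mm9 genome, with negative values upstream. A square marks a site with no mismatch and a circle a site with 1 mismatch. Sites lie at -42 in Cdkn1a, -160 and 366 in Ccng1, -1309 in Trp53inp1 and 2622 in Cdkn2b. Cdkn1a also has annotated transcript starts downstream of the 5′ end used here.

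The Ink4 genes are neighbours on mouse chromosome 4. In mm9, Cdkn2a lies at chr4:88920377-88940557 and Cdkn2b at chr4:88952198-88956941, both on the minus strand, with 11640 bases between them. Cdkn2a has alternative first exons whose 5′ ends are 12461 bases apart, the outer giving Arf and the inner giving p16Ink4a. The table holds 1 value for the gene, so Arf and p16Ink4a transcripts cannot be told apart in what follows. Their start regions and that of Cdkn2b are shown because they are separate promoters feeding the Ink4 values below. They are RefSeq sequences on the build GRCm38.p6, not mm9, minus strand, with the 50 bases after the start in capitals.
Cdkn2a, outer first exon, chr4:89294570-89294869: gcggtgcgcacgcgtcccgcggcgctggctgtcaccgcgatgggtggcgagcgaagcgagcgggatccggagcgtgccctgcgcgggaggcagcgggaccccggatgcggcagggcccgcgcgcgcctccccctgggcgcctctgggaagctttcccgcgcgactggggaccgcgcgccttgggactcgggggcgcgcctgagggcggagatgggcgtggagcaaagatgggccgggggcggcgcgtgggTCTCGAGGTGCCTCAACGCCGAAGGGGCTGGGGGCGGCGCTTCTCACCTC
Cdkn2a, inner first exon, chr4:89282143-89282442: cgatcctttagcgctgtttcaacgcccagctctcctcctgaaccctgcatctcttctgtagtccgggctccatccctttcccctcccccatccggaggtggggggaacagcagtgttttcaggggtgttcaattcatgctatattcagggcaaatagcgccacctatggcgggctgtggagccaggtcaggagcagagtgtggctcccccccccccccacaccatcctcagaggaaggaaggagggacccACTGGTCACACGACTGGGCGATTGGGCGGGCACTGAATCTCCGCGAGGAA
Cdkn2b, chr4:89310983-89311282: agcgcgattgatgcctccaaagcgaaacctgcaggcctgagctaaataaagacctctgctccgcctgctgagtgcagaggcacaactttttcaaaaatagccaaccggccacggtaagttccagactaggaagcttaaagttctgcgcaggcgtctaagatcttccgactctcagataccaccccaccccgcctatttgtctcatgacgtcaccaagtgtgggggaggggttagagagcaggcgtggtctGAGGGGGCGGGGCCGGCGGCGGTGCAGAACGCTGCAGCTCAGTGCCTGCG

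The outer Cdkn2a start region had a GC content of 77% and 45 CpG dinucleotides. The inner one had 60.3% and 12, and that of Cdkn2b had 57.7% and 18. The medians over the 32851 start regions in the RefSeq table were 52.7% and 7. Of the 9 genes, 8 had an entry there, and Trp53inp1 had none.

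Depth and identity of the libraries were examined once. Read counts were not analysed here, so the read depth is unknown. The depth relative to AN1, taken from the step between low values, ranged from 0.961 to 1.26, the sum of FPKM over all genes from 661973 to 963434, and the correlation between lines from 0.929 to 0.978. The 13 pluripotency markers found in the table summed to between 2859 and 5349 FPKM in every line, and Pou5f1 was at least 614.6 FPKM. The adipocyte gene Lep was listed at 0 in all 16 lines, and Adipoq, Pparg, Cd36 and Plin1 stayed under 0.5 FPKM. The other adipocyte lineage markers were detected in every line. Their means were 6.23 FPKM for Zfp423, 2.18 for Dlk1, 2.08 for Lpl, 1.92 for Fabp4 and 1.46 for Cebpa. Fibroblast markers were present in every line. Their 25 genes summed to 1858 to 3167 FPKM in AN F, 2220 to 4114 in AN P, 2290 to 4270 in AI F and 1231 to 3620 in AI P, and 0 of the 25 were at 0 in any line. In the study, nuclear transfer blastocysts were placed on mouse embryonic fibroblast feeders, and whether feeders were removed before RNA was extracted is not given in the sources used here. In whole-culture RNA, fewer cells of a type and less RNA per cell cannot be told apart. The records titled GS9 and GS32 carry a source field that names GS4, in conflict with their titles. The titles were followed, and AI differences are given with and without both lines. This covers the 9 genes, the gene lists, and the list genes named for an unadjusted p under 0.05 in AI. Fits of the newly derived AI lines alone have AI9 as the lone AI P line, which is then assumed to vary like the others.

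All 9 genes were expressed in every line, at levels that can be compared per length because FPKM (fragments per kilobase of transcript, with the mapped reads of the library as the other divisor) divides by transcript length. Bax, which opens the mitochondrial membrane in apoptosis, was highest, at 215 ± 21.9 FPKM (SD, n = 16). Trp53 followed at 181 ± 22.4, then the cyclin G1 gene Ccng1 at 95.6 ± 15.7, Cdkn1a at 75.0 ± 19.1 and Mdm2 at 67.7 ± 6.94. The lower levels were those of Trp53inp1 at 24.9 ± 4.51, Bbc3 at 18.6 ± 2.16, Cdkn2a at 14.9 ± 3.45 and Cdkn2b at 11.3 ± 4.08. Bax lay above Trp53 in 15 of 16 lines and Trp53 above Ccng1 in 16. Ccng1 was above Cdkn1a in 13 lines, Cdkn1a above Mdm2 in 12 and Cdkn2a above Cdkn2b in 13. For the last 2 of these pairs the means differed by less than the larger SD. The mean of Bax was higher than that of 96.2% of tested genes, and the mean of Cdkn2b higher than that of 55.7%.

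The genes differed more in how they varied than in whether they were on. On the log2(FPKM + 1) scale, on which the remaining tests were run, the SD over the 16 lines was 0.54 for Cdkn2b, larger than that of 95.5% of tested genes. It was 0.38 for Cdkn1a (88.8%) and 0.37 for Cdkn2a (87.7%), against a median of 0.21 over all tested genes. Mdm2 (0.14, 15.9%), Bax (0.15, 17.5%) and Bbc3 (0.16, 23.6%) were among the steadier genes. The highest line exceeded the lowest 4.38-fold for Cdkn2b, 2.94-fold for Cdkn2a and 2.36-fold for Cdkn1a, and 1.36-fold for Bax.

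**Figure D2:**
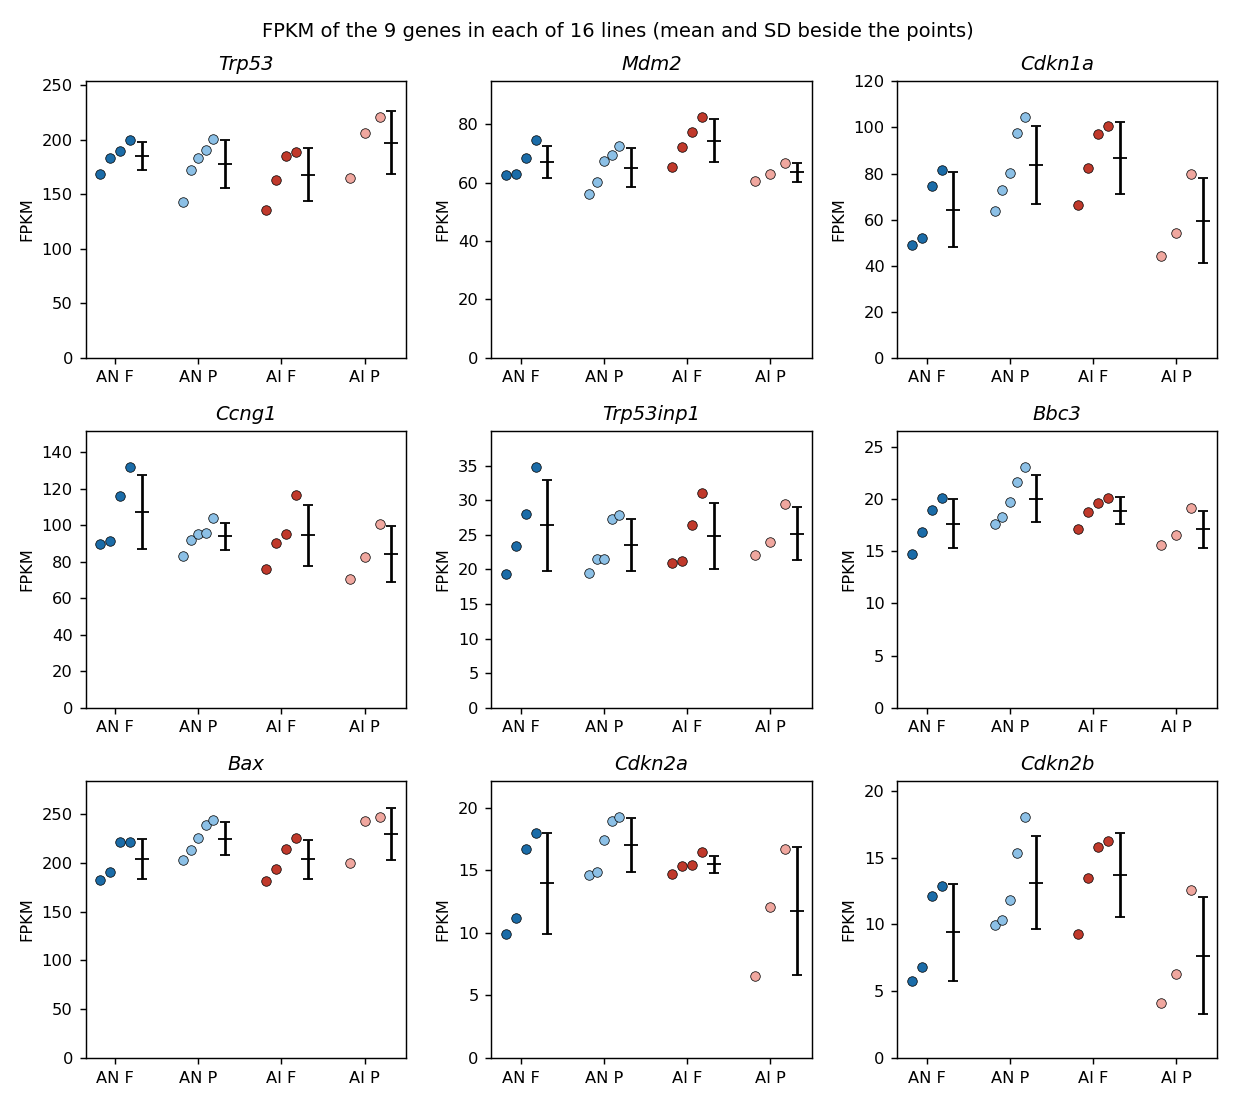
FPKM of the 9 genes by group, with 1 point per line and the mean and SD beside the points. Each axis starts at 0. The groups overlap for every gene, and Cdkn1a and Cdkn2b have 2 low lines each in AN F (AN9 and AN20) and in AI P (GS4 and GS9).

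The first comparison asks which genes differ between fully and partially reprogrammed ntESCs. None of the 9 genes was called in AN F against AN P. With limma, 0 of 13185 genes (0%) reached an adjusted p of 0.05 or less, whereas 792 (6.01%) did so before adjustment. Among the 9 genes, 0 had an unadjusted p under 0.05. The lines of the groups did not overlap for 171 genes (1.30%), and they overlapped for all 9 of these. The second comparison asks the same of iPSCs. In AI F against AI P, 0 of 13185 genes (0%) passed, 1025 (7.77%) had an unadjusted p under 0.05, and the lines did not overlap for 645 (4.89%). Of the 9 genes, 2 had an unadjusted p under 0.05, Cdkn1a and Cdkn2b, and the groups overlapped for all 9. In AN against AI, 0 genes (0%) passed, 370 (2.81%) had an unadjusted p under 0.05, and the lines did not overlap for 3 (0.0228%). None of the 9 was in either set. The 9 log2 differences of AN minus AI lay between -0.07 (Mdm2) and 0.18 (Cdkn2a), and all of their 95% intervals included 0. The difference of Cdkn2a was 0.03 without GS9 and 0.31 with passage number as a covariate. Without GS9 and GS32 the 9 differences lay between -0.05 (Mdm2) and 0.21 (Ccng1). The smallest exact p that these group sizes allow is 0.0159 in AN and 0.0571 in AI, so the AI lines alone cannot pass 0.05 in an exact test.

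Trp53 itself was steady in ntESCs. It was at 169 FPKM in AN1, 183 in AN9, 199.7 in AN15 and 189.5 in AN20, and at 183 in AN2, 190.3 in AN3, 172 in AN5, 143 in AN6 and 200.5 in AN7. In iPSCs it was at 185 in AI3, 188 in AI7, 163 in AI10 and 136 in GS32, and at 221 in GS4, 206 in GS9 and 165 in AI9. The AN P lines spanned the AN F range, with AN6 lowest, and in AI the extremes were both previously identified lines, GS32 low and GS4 high. The log2 difference was 0.06 ± 0.10 (SE) for AN F minus AN P (limma, adjusted p = 0.819) and -0.23 ± 0.16 for AI F minus AI P (limma, adjusted p = 0.538). With the newly derived AI lines alone it was 0.11, and with the previously identified lines alone -0.65, so the direction in AI rested on the latter. It was -0.10 without GS9 and GS32, -0.13 without GS32 and -0.36 without AI9. The scaling of the values also moved it over the 7 AI lines. It was -0.07 with quantile normalization and -0.06 with small RNA genes left out and equal sums. The median of all genes was -0.02 and 0.10 in these settings, against -0.04 with the deposited values, so part of the move was shared by all genes. A transcript level does not measure p53 protein, which is set largely by its breakdown.

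Mdm2, the ligase that marks p53 for breakdown and is itself a p53 target, had the smallest SD of the 9 genes on the log2(FPKM + 1) scale. In AN F it was at 63.0 FPKM in AN1, 62.7 in AN9, 68.4 in AN15 and 74.5 in AN20, and in AN P at 60.4 in AN2, 72.5 in AN3, 56.0 in AN5, 67.5 in AN6 and 69.5 in AN7. In AI F it was at 72.2 in AI3, 65.4 in AI7, 77.4 in AI10 and 82.5 in GS32, and in AI P at 60.7 in GS4, 63.1 in GS9 and 66.9 in AI9. The AN groups lay over each other, and in AI 3 of 4 AI F lines were above all 3 AI P lines. The log2 difference was 0.04 ± 0.09 (SE) in AN (limma, adjusted p = 0.871) and 0.22 ± 0.11 in AI (limma, adjusted p = 0.521). The exact two-sided permutation test of the AI difference gave p = 0.114. The AI difference was 0.16 without GS9 and GS32 and 0.09 in the newly derived lines alone. The ratio of Mdm2 to Trp53 FPKM was 0.363 ± 0.0248 (SD, n = 4) in AN F, 0.371 ± 0.0611 (n = 5) in AN P, 0.455 ± 0.115 (n = 4) in AI F and 0.329 ± 0.0690 (n = 3) in AI P.

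Cdkn1a encodes p21, which stops the cell cycle by inhibiting cyclin-dependent kinases and is the best known p53 target. In AN F it was at 81.4 FPKM in AN1, 51.9 in AN9, 74.6 in AN15 and 48.7 in AN20, and in AN P at 72.8 in AN2, 97.5 in AN3, 63.7 in AN5, 104.5 in AN6 and 80.4 in AN7. AN9 and AN20 were below all AN P lines, AN3 and AN6 were above all AN F lines, and the other 5 lines interleaved. In AI F it was at 82.5 in AI3, 66.2 in AI7, 100.8 in AI10 and 97.0 in GS32, and in AI P at 54.2 in GS4, 44.3 in GS9 and 80.0 in AI9. GS4 and GS9 were below all AI F lines, and AI9 sat inside the AI F range. The log2 difference was therefore negative in AN, at -0.39 ± 0.19 (SE; limma, adjusted p = 0.636), and positive in AI, at 0.56 ± 0.23 (limma, adjusted p = 0.521). The 95% interval was -0.82 to 0.04 in AN and 0.02 to 1.10 in AI, and exact two-sided permutation tests gave p = 0.143 and 0.114. Leaving out 1 line at a time, the AN difference ranged from -0.51 without AN1 to -0.27 without AN20.

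The AI difference in Cdkn1a depended on which lines entered. It was 0.03 among the newly derived AI lines (AI3, AI7 and AI10 against AI9) and 0.97 among the previously identified lines (GS32 against GS4 and GS9), where 1 of the groups is a lone line. Without GS9 and GS32 it was 0.31 (limma, adjusted p = 0.920), and without GS9 alone 0.37. In AN against AI the difference was 0.01 ± 0.19, with a 95% interval from -0.38 to 0.40.

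Ccng1 encodes cyclin G1, a p53 target that feeds back on p53 through Mdm2. It ranged from 89.9 to 131.7 FPKM in AN F (107 ± 20.3, SD, n = 4), from 83.3 to 104 in AN P (93.9 ± 7.47, n = 5), from 75.9 to 116.5 in AI F (94.4 ± 16.8, n = 4) and from 70.2 to 100.4 in AI P (84.3 ± 15.2, n = 3). AN20, a low line for Cdkn1a, was the highest of all 16 for Ccng1. The log2 difference was 0.17 ± 0.12 (SE) in AN and 0.16 ± 0.18 in AI, and 0.15 ± 0.11 in AN against AI (limma, adjusted p = 0.640, 0.665 and 1). The AN difference was 0.07 without AN20. The AI difference was 0.04 without GS4, without GS9 and GS32 it was also 0.04, without GS32 it was 0.05 and without AI9 0.29, and among the newly derived AI lines alone it was -0.21.

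None of the genes of the cell death arm was called in any comparison. Trp53inp1, which encodes a stress protein that helps p53 towards apoptosis and takes part in autophagy, ranged from 19.4 to 34.8 FPKM in AN F, 19.5 to 27.9 in AN P, 21.0 to 31.0 in AI F and 22.1 to 29.5 in AI P. Its log2 difference was 0.14 ± 0.17 (SE) in AN and -0.02 ± 0.17 in AI (limma, adjusted p = 0.753 and 0.956), and AN20 was again the highest line. Without AN20 the AN difference was 0.00, and without GS9 and GS32 the AI difference was -0.22. Bbc3, which encodes the BH3-only protein Puma, was at 17.7 ± 2.35 FPKM (SD, n = 4) in AN F, 20.1 ± 2.28 (n = 5) in AN P, 18.9 ± 1.31 (n = 4) in AI F and 17.1 ± 1.79 (n = 3) in AI P. Its lines ranged from 14.7 in AN20 to 23.1 in AN6, and its log2 difference was -0.18 ± 0.11 in AN and 0.14 ± 0.11 in AI (limma, adjusted p = 0.638 and 0.570). The AN difference of Bbc3 was -0.10 without AN20, and its AI difference was 0.08 without GS9, 0.22 without GS4 and 0.12 without GS9 and GS32.

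In the deposited FPKM, Bax was lower in the mean of the fully reprogrammed group in both derivations, with overlapping lines. It was at 204 ± 20.5 FPKM (SD, n = 4) in AN F, 225 ± 17.0 (n = 5) in AN P, 204 ± 20.03 (n = 4) in AI F and 229.9 ± 26.4 (n = 3) in AI P. Of 5 AN P lines, 3 were above all AN F lines, and of 3 AI P lines, 2 were above all AI F lines. The log2 difference was -0.14 ± 0.09 (SE) in AN and -0.17 ± 0.13 in AI (limma, adjusted p = 0.636 and 0.557). The AN difference was -0.09 without AN20. The AI difference was -0.27 without AI9, -0.10 without GS9 and GS32 and 0.05 among the newly derived lines alone. Scaling moved it too. With quantile normalization it was -0.004, where the median of all genes was -0.02. With small RNA genes left out and equal sums it was 0.0019, where that median was 0.10.

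Cdkn2a, the Arf and p16Ink4a gene, was at 18.01 FPKM in AN1, 11.2 in AN9, 16.7 in AN15 and 9.94 in AN20, and at 14.9 in AN2, 19.0 in AN3, 14.6 in AN5, 17.5 in AN6 and 19.3 in AN7. In iPSCs it was at 16.4 in AI3, 15.4 in AI7, 14.8 in AI10 and 15.4 in GS32, and at 16.7 in GS4, 6.54 in GS9 and 12.04 in AI9. AN9 and AN20 were again below all AN P lines. In AI the 4 AI F lines were close together, GS4 was above all of them, and AI9 and GS9 were below. The log2 difference was -0.30 ± 0.18 (SE) in AN (limma, adjusted p = 0.636) and 0.45 ± 0.27 in AI (limma, adjusted p = 0.521). Without AN20 the AN difference was -0.16. The AI difference was 0.12 without GS9, 0.73 without GS4 and 0.12 without both GS9 and GS32.

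Cdkn2b encodes p15Ink4b, an inhibitor of Cdk4 and Cdk6 that is known to respond to TGF-beta. In AN F it was at 12.8 FPKM in AN1, 6.83 in AN9, 12.1 in AN15 and 5.78 in AN20, and in AN P at 9.93 in AN2, 18.01 in AN3, 10.3 in AN5, 15.4 in AN6 and 11.8 in AN7. In AI F it was at 13.5 in AI3, 9.31 in AI7, 15.8 in AI10 and 16.2 in GS32, and in AI P at 6.28 in GS4, 4.11 in GS9 and 12.6 in AI9. The lines that were low for Cdkn1a were low here too, AN9 and AN20 in AN F and GS4 and GS9 in AI P. The log2 difference was -0.48 ± 0.25 (SE) in AN (limma, adjusted p = 0.636) and 0.86 ± 0.34 in AI (limma, adjusted p = 0.521), with 95% intervals from -1.05 to 0.09 and from 0.05 to 1.66. Exact two-sided permutation tests gave p = 0.175 in AN and 0.114 in AI. The AI difference was 0.00 among the newly derived lines, 1.497 among the previously identified lines and 0.45 without GS9 and GS32. It was 0.54 without GS9. The AN difference was -0.29 without AN20.

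**Figure D3:**
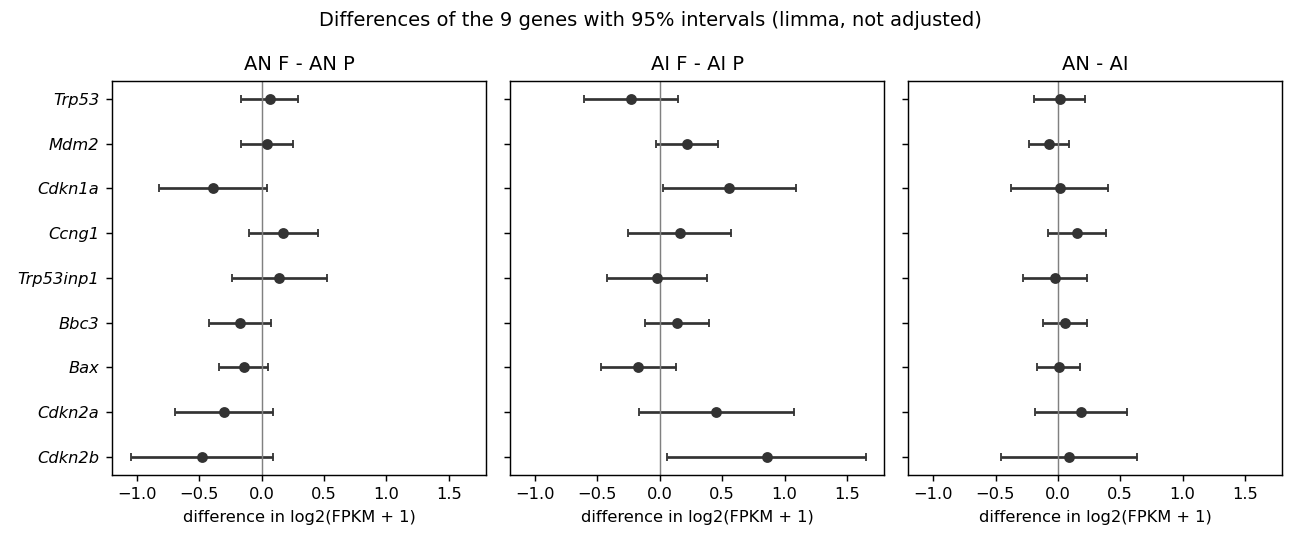
Difference in log2(FPKM + 1) of each gene for AN F minus AN P, AI F minus AI P and AN minus AI, with the 95% interval of limma's fit, not adjusted for the number of genes. The intervals of Cdkn1a (0.02 to 1.10) and Cdkn2b (0.05 to 1.66) in AI lie above 0, and the other 25 intervals include 0.

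The direction of Cdkn1a, Cdkn2a and Cdkn2b was opposite in the 2 derivations, and the difference between the effects was tested as an interaction in a fit of all 16 lines. Across all genes, 0 (0%) passed an adjusted p of 0.05 and 2194 (16.6%) had an unadjusted p under 0.05. Of the 9 genes, 3 had an unadjusted p under 0.05. The effect in AI minus that in AN was 0.95 ± 0.31 (SE) for Cdkn1a, 1.33 ± 0.43 for Cdkn2b and 0.75 ± 0.32 for Cdkn2a (limma, adjusted p = 0.290 for each). Bbc3 followed at 0.31 ± 0.16 (limma, adjusted p = 0.316). Without AI9, the only newly derived AI P line, AI P held GS4 and GS9 alone. The difference was then 1.18 for Cdkn1a (limma, adjusted p = 0.0439) and 1.72 for Cdkn2b (limma, adjusted p = 0.0358), and 651 of 13185 genes passed. With the newly derived AI lines alone it was 0.43 for Cdkn1a and 0.48 for Cdkn2b, and without GS9 and GS32 it was 0.70 and 0.93 (limma, adjusted p = 0.587 for both). The value for Cdkn2a was 0.42 without GS9, with or without GS32, and that for Bbc3 was 0.30 without GS9 and GS32. Without these 2 lines 0 of the 9 genes had an unadjusted p under 0.05, which 6.38% of all tested genes then had.

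The fibroblast markers differed in the same directions, and in AI this too rested on the previously identified lines. In AI F against AI P, 25 of 25 were higher in AI F, 5 of them at an unadjusted p under 0.05 (7.77% of all tested genes), with a median log2 difference of 0.91 against -0.04 over all tested genes. The mean log2(FPKM + 1) of the markers was 3.84 in GS9, 4.26 in GS4 and 5.796 in GS32, and 5.38 in AI9 against 4.69 to 5.51 in AI3, AI7 and AI10. Among the newly derived lines 6 of 25 were higher in AI F, with a median of -0.19, and without GS9 and GS32 it was 23 of 25, with a median of 0.36 and 0 at an unadjusted p under 0.05, against 1.45% of all tested genes in that fit. In AN F against AN P, 22 of 25 were lower in AN F, 0 at an unadjusted p under 0.05 (6.01% of all), with a median of -0.22 against -0.01. In the interaction, 16 of 25 had an unadjusted p under 0.05 (16.6% of all), with a median of 1.20. That median was 0.64 without GS9 and GS32 and 0.00 with the newly derived AI lines alone. Vim and S100a4, which mark mesenchymal cells, had log2 differences of 1.06 ± 0.37 (SE) and 1.17 ± 0.41 in AI (limma, adjusted p = 0.521 for both). Without GS9 and GS32 they were 0.76 and 1.04, and in the newly derived lines alone 0.07 and 0.21. The part of the fibroblast markers in the results for Cdkn1a, Cdkn2a and Cdkn2b was not tested.

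Over the 16 lines, Cdkn1a and Cdkn2b varied together. Their Pearson r was 0.974 (Spearman rho 0.953) over all lines, 0.964 over the 9 AN lines, 0.992 over the 7 AI lines, and 0.962 without the 2 lines farthest from the median of Cdkn1a. The ratio of Cdkn1a to Cdkn2b FPKM stayed between 5.41 and 8.43 in the AN lines and reached 10.8 in GS9. Cdkn2a was less closely tied to them. Its r was 0.71 with Cdkn1a and 0.75 with Cdkn2b over all lines, 0.909 and 0.932 in AN, and 0.594 and 0.635 in AI, where Spearman's rho was 0.036 and 0.071. These r are descriptions over lines that share a strain, a donor cell type and a culture medium.

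With the other p53 targets of the 9, the r of Cdkn1a was 0.11 for Ccng1 (-0.522 in AN and 0.714 in AI), 0.14 for Trp53inp1, 0.52 for Bbc3, 0.502 for Mdm2 (0.146 in AN and 0.877 in AI) and -0.18 for Bax (0.585 in AN and -0.899 in AI). The signs in AN for Ccng1 and Bax rested on few lines. Without the 2 AN lines farthest from the median of Cdkn1a, r was 0.906 for Ccng1 and -0.287 for Bax. The same step in AI gave 0.674 and -0.722. With the mean of the 40 other p53 targets described further on, the r of Cdkn1a was 0.677 (0.739 in AN and 0.691 in AI), and with the mean of the p53 regulators -0.918. Mdm2, Ccng1 and Trp53inp1 formed a looser set, with r of 0.535 to 0.635 between them, and Bax ran against Ccng1 (r = -0.652) and with Trp53 (r = 0.607). Trp53 and Mdm2 had r of 0.299 in AN and -0.898 in AI. The r with the mean of the fibroblast markers was 0.910 for Cdkn2b, 0.865 for Cdkn1a, 0.614 for Cdkn2a, 0.607 for Mdm2 and -0.604 for Trp53, and between -0.333 and 0.368 for the others. Within the derivations some of these differed in sign. The r with these markers was 0.665 in AN and -0.846 in AI for Bax, -0.47 and 0.808 for Ccng1, and 0.072 and -0.877 for Trp53. Without GS4 and GS9 it was 0.825 for Cdkn2b, 0.792 for Cdkn1a and 0.463 for Cdkn2a. The mean of the 10 endoderm markers in the table had r of 0.866 with Cdkn1a, 0.886 with Cdkn2b and 0.573 with Cdkn2a. Most of these 10 were near the floor. Col4a1 averaged 44.2 FPKM and the next highest, Dab2, 3.69, while Ttr was at 0 in 15 lines and Afp in 7. The mean of the pluripotency markers had r of -0.725 with Cdkn1a and 0.724 with Trp53. Without the 2 lines farthest from the median of these markers, r was -0.689 and 0.488. Within the derivations the r with Trp53 rested on few lines. It was 0.796 in AN and 0.683 in AI, and 0.0447 and 0.0179 without the 2 farthest lines of each.

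**Figure D4:**
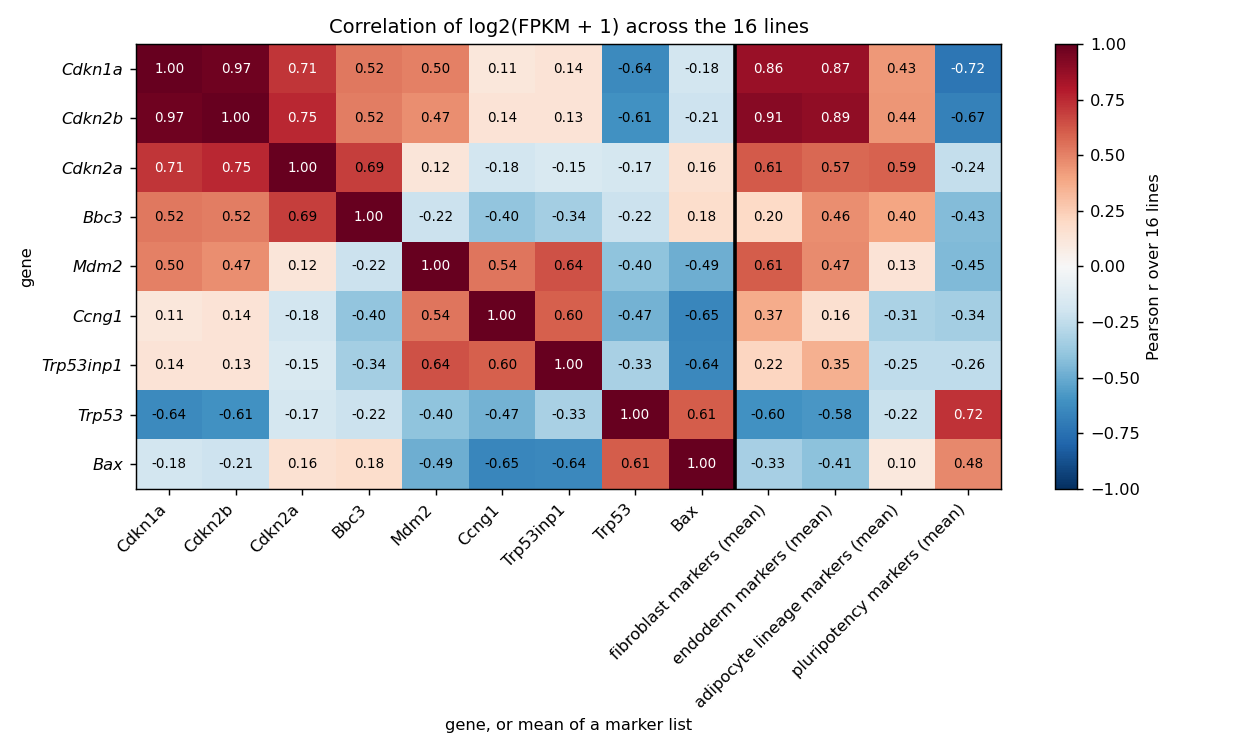
Pearson r of log2(FPKM + 1) over the 16 lines between the 9 genes (left of the black line) and with the mean of 4 marker lists (right of it). Red is positive and blue negative. Cdkn1a and Cdkn2b have r of 0.974 with each other and 0.865 and 0.910 with the fibroblast markers.

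**Figure D5:**
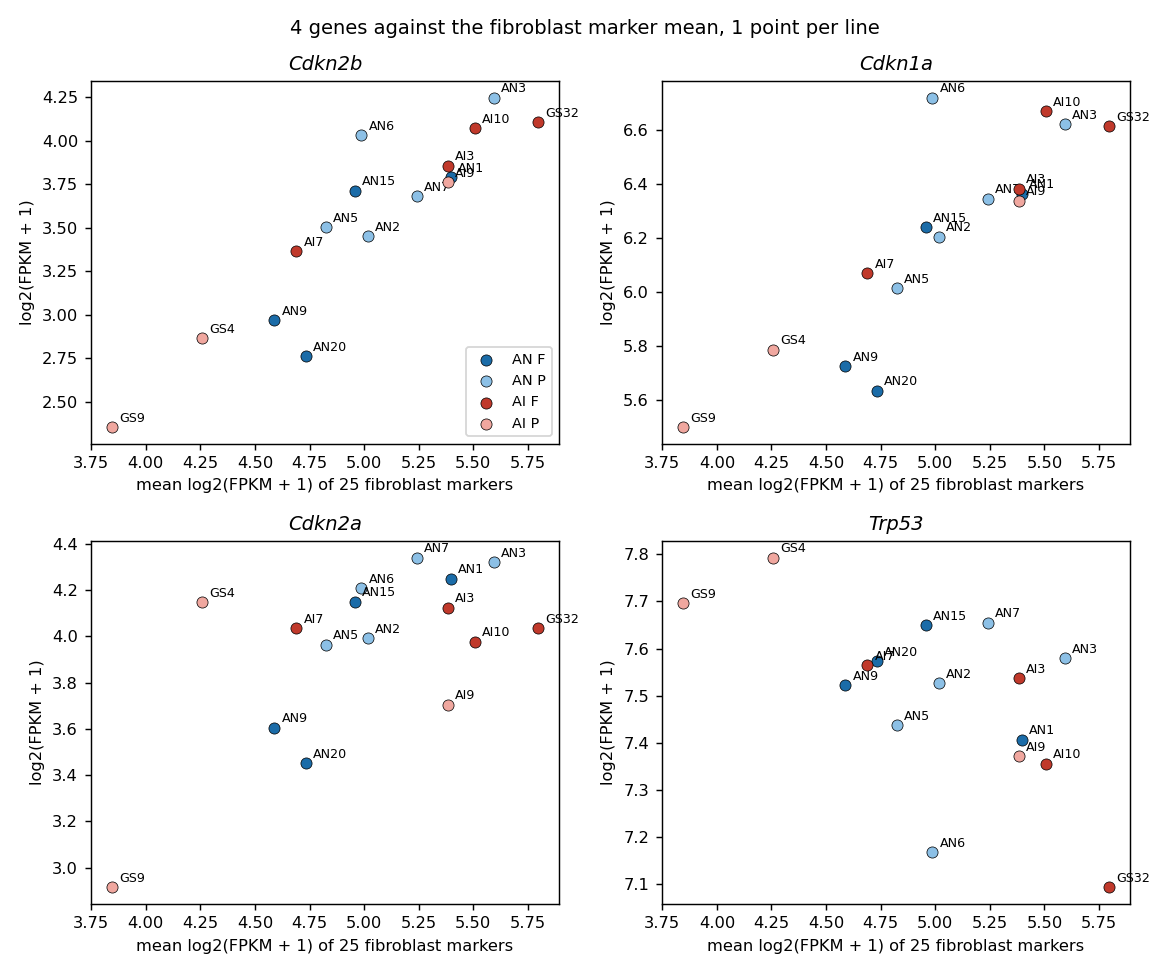
log2(FPKM + 1) of Cdkn2b, Cdkn1a, Cdkn2a and Trp53 against the mean log2(FPKM + 1) of 25 fibroblast markers, with 1 labelled point per line, coloured by group. GS9 and GS4 are at the low end of the markers and GS32 at the high end, and r is 0.910, 0.865, 0.614 and -0.604.

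The tested genes most like each of the 9 over the 16 lines were named by the highest Pearson r, small RNA genes left out. For Cdkn1a they were Cdkn2b (0.974), the lysosomal protease gene Ctsb (0.973) and Creb3 (0.970). For Cdkn2b they were Ctsb (0.985), Bmp1, whose product trims procollagen (0.983), and Ctsd, another lysosomal protease gene (0.981). The profile of Cdkn2a was closest to Esrra (0.894), Fam108a and Gadd45g (0.890 each), and there rho was lower, at 0.65 to 0.712. Trp53 was closest to Trim27 (0.926), Samd1 (0.892) and G3bp1 (0.889). Mdm2 was closest to Acaa2 (0.866), Zcchc6 (0.864) and Pdgfc (0.827), and Zcchc6 also led for Trp53inp1 (0.843), before Ap2b1 (0.806) and Wnk1 (0.792). Ccng1 was closest to Stambp (0.926), Picalm (0.902) and Esyt2 (0.899). Bbc3 was closest to 2510006D16Rik (0.903), Mlf2 (0.893) and Rpl18 (0.885). For Bax the r was 0.880 with each of Dus1l and the respiratory chain genes Atp5k and Cox8a.

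Of the genes around p53, 23 regulators were tested. In AN, 19 of 23 were higher in AN F, 0 of them at an unadjusted p under 0.05, with a median log2 difference of 0.16, where 46.2% of all tested genes were higher with a median of -0.01. Of all tested genes, 6.01% had an unadjusted p under 0.05 in AN. In AI the median was -0.03 and 3 had an unadjusted p under 0.05, all lower in AI F, where 7.77% of all genes had one in either direction. They were Chek2 and Atr, kinases of the DNA damage response, at -0.49 ± 0.18 (SE) and -0.35 ± 0.14, and Mdm4, which inhibits p53 beside Mdm2, at -0.52 ± 0.19 (limma, adjusted p = 0.521 for each). Mdm4 was at 19.6 ± 3.25 FPKM (SD, n = 4) in AI F and 28.6 ± 6.46 (n = 3) in AI P. Without GS9 and GS32 they were -0.42, -0.31 and -0.46, and in the newly derived lines alone -0.15, -0.10 and -0.15. In the fit without GS9 and GS32, 0 of 23 had an unadjusted p under 0.05, against 1.45% of all tested genes. In AN against AI 0 of 23 had one, against 2.81% of all tested genes. The most abundant regulators were Npm1, with 4753 to 14033 FPKM over the lines, and Rpl11, with 2344 to 3737.

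Another 40 p53 targets were tested, and their medians were 0.00 in AN, 0.03 in AI and 0.03 in AN against AI. In AN, 2 (of all tested genes, 6.01%) had an unadjusted p under 0.05. Ei24, which encodes a membrane protein of autophagy, was at 56.9 ± 6.83 FPKM (SD, n = 4) in AN F and 67.9 ± 3.42 (n = 5) in AN P, a log2 difference of -0.26 ± 0.09 (SE), and the death receptor gene Eda2r differed by 0.31 ± 0.13 (limma, adjusted p = 0.636 for both). In AI only Ddit4 (7.77% of all), an inhibitor of mTORC1 signalling, had an unadjusted p under 0.05, at -0.65 ± 0.27 (limma, adjusted p = 0.521), and it was at -0.46 without GS9 and GS32. In AN against AI there were 3 (2.81% of all), Psrc1 at 0.17 ± 0.07, Plk3 at 0.27 ± 0.12 and Rps27l at -0.23 ± 0.11 (limma, adjusted p = 1 for each). Without GS9 and GS32 they were at 0.17, 0.22 and -0.11. Rps27l, at 570 to 1129 FPKM, and Gadd45a, at 74.3 to 155.8, were the most abundant of the list.

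Of 12 tested members of the Bcl-2 family besides Bax and Bbc3, 2 had an unadjusted p under 0.05 in AN (6.01% of all tested genes) and 2 in AI (7.77%). In AN these were Bad, which promotes death, and Bcl2l2, which opposes it, at -0.25 ± 0.09 and -0.34 ± 0.13 (SE; limma, adjusted p = 0.636 for both). In AI they were Bok at 0.62 ± 0.18 and Bid at -0.27 ± 0.09 (limma, adjusted p = 0.521 for both), both of them promoters of death, and without GS9 and GS32 they were at 0.46 and -0.23. The median of the family was -0.11 in AN, -0.01 in AI and 0.04 in AN against AI, where 0 had such a p (2.81% of all tested genes). Mcl1 and Pmaip1 were the most abundant members, at 112 to 192 and 38.5 to 79.6 FPKM.

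Downstream of the inhibitors, 20 cyclin, Cdk, Rb and E2f genes were tested. Ccnd1, the cyclin D1 gene, had the lowest unadjusted p of the list in AI, with 117 ± 12.9 FPKM (SD, n = 4) in AI F and 81.8 ± 12.5 (n = 3) in AI P, a log2 difference of 0.51 ± 0.14 (SE). Ccnd3 was at -0.37 ± 0.15 (limma, adjusted p = 0.521 for both). These were the 2 genes of the list with an unadjusted p under 0.05 in AI (7.77% of all). Without GS9 and GS32 they were at 0.40 and -0.40, and 0 of 20 had such a p, against 1.45% of all tested genes. In AN, Cdk6 differed by 0.23 ± 0.08 (limma, adjusted p = 0.636), and in AN against AI, E2f5 by 0.26 ± 0.11 (limma, adjusted p = 1). Cdk4, the main Ink4 partner here by level, was at 236 to 359.7 FPKM, and Ccnb1 at 135 to 197. The other CDK inhibitors, of which 4 were tested, had 0 genes with an unadjusted p under 0.05 in any of the 3 comparisons over all lines. Of all tested genes, 6.01% had one in AN, 7.77% in AI and 2.81% in AN against AI. Without GS9 and GS32, 1 of the 4 had such a p in AI, against 1.45% of all tested genes. In AN against AI it was then 2 of the 4, against 5.32% of all. Cdkn1c and Cdkn3 were the highest of these inhibitors, at 6.65 to 42.6 and 8.79 to 24.7 FPKM.

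Of 14 tested regulators and neighbours of Cdkn2a, 0 had an unadjusted p under 0.05 in AN (6.01% of all), 1 in AI (7.77% of all) and 0 in AN against AI (2.81% of all). The exception was Ets1, an activator of p16Ink4a transcription, with a log2 difference of 0.79 ± 0.31 (SE; limma, adjusted p = 0.521) and 2.83 to 10.1 FPKM over the lines, and it was at 0.54 without GS9 and GS32 and 0.01 in the newly derived lines alone. Ezh2 and Eed, which belong to the Polycomb complex known to silence the locus, were at 84.2 to 139.5 and 103 to 181 FPKM. The median of this list was 0.09 in AN and -0.14 in AI. Among the marker lists, the pluripotency genes had medians of 0.08 in AN and -0.32 in AI, where 1 of 13, Tdgf1, had an unadjusted p under 0.05 (-0.71 ± 0.25). Of 6 tested endoderm markers, Col4a1 had one in AI (1.06 ± 0.45), with list medians of -0.23 in AN and 0.31 in AI. Of 5 tested adipocyte lineage markers, Dlk1 had one in AI (0.58 ± 0.21) and Fabp4 in AN against AI (-0.45 ± 0.14), at 1.12 to 4.09 and 0.787 to 3.66 FPKM. Of all tested genes, 7.77% had an unadjusted p under 0.05 in AI and 2.81% in AN against AI. None of these marker genes passed after adjustment (limma, adjusted p = 0.521 for Tdgf1, Col4a1 and Dlk1). Without GS9 and GS32, Tdgf1 was at -0.50, Col4a1 at 0.53, Dlk1 at 0.63 and Fabp4 at -0.39. The AI medians were then -0.04 for the regulators of p53, -0.03 for its other targets, 0.07 for the Bcl-2 family, 0.00 for the cyclin genes, -0.09 for the regulators and neighbours of Cdkn2a, -0.30 for the pluripotency genes and 0.31 for the endoderm markers. For the other CDK inhibitors the AI median was 0.185 over all AI lines and 0.27 without GS9 and GS32. For the adipocyte lineage markers it was 0.07 and -0.12.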

How the data were processed

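Single-end RNA-seq covered 16 lines (1 library each). The deposited table holds FPKM values that the authors calculated with Cufflinks (2.2.1) after mapping to mm9 with TopHat2 (2.1.0), per the labels. HTSeq is named there without a role. Replicates were not pooled, and 0 columns were left unused. F and P groups follow the study's tetraploid complementation by line name in the sample titles, and the AN and AI groups follow the labels alone.

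FPKM was transformed to log2(FPKM + 1), so fold changes of low genes are understated. Genes averaging 0.5 FPKM or more were tested with limma 3.58.1 (R 4.3.3, mean-variance trend, Benjamini-Hochberg adjustment over 13185 genes, threshold 0.05). Standard errors and unadjusted p-values come from the same fits. Exact permutation tests were two-sided, doubling the smaller tail (Python 3.11.15, scipy 1.17.1). The limma step was tested on simulated data. Sequences were read with pysam 0.24.0. Of the gene names, 21575 (95.7%) were in the mm9 annotation.

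The members and gene lists were chosen with earlier results of these data known. All members are named, with up to 3 genes per list and comparison with the smallest unadjusted p under 0.05, up to 2 with the highest mean FPKM, and the 3 genes most like each member. Genes singled out for other reasons (Lep, Adipoq, Pparg and the other adipocyte lineage markers named beside them) were chosen after their values were seen. Alternatives were another pseudocount, filter, scaling and fit, passage as a covariate, and leaving out lines. Fits of the newly derived and of the previously identified AI lines alone, and leaving out GS9 and GS32 together, were chosen after seeing the data. No label names a batch.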

Additional observations from a re-analysis of the deposited data

Results flagged for a closer look

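For 4 of the 9 genes, the F minus P difference in AI minus that in AN had an exact p under 0.05 in a permutation test (two-sided, F and P labels exchanged inside each derivation). That exchange assumes no F against P difference in either derivation, not merely equal ones. The share of all genes with such an exact p was not computed. Cdkn1a and Cdkn2b varied together (r = 0.974), so their results are not separate. The effect in AI minus that in AN was 0.949 for Cdkn1a (exact p = 0.0177), 1.33 for Cdkn2b (exact p = 0.0231), 0.315 for Bbc3 (exact p = 0.0454) and 0.755 for Cdkn2a (exact p = 0.0458), on the log2 scale. These p-values are not adjusted, and none of the 4 passed limma's interaction test over all genes, in which 16.6% of genes had an unadjusted p under 0.05. Leaving out GS9 lowered the value for Cdkn2a to 0.418, and with the newly derived AI lines alone those of Cdkn1a and Cdkn2b were 0.43 and 0.48. The fibroblast markers differed in the same direction, with a median of 1.20 over all lines and 0.00 with the newly derived AI lines alone, and their part was not tested.

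In AN P, the mean log2(FPKM + 1) of the pluripotency markers was 6.58 in AN6, apart from the other 4 lines at 7.14 to 7.32. AN6 was also the line with the lowest Trp53 of AN P and the highest Cdkn1a of all lines. Of 39 groups examined for a line that stands apart, 1 was found, where chance gives about 1 in 20, or 1.95.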

How the results depend on the processing

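Under the alternatives, 725 of 801 member values kept their direction and side of the threshold, 0 lost a call, 2 gained one (Cdkn1a and Cdkn2b in the interaction without AI9) and 74 changed sign. The causes were not tested. At an unadjusted p under 0.05, 792 genes were called in AN, 1025 in AI, 370 in AN against AI and 2194 in the interaction.

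In AI F minus AI P, Trp53inp1 was 0.00874 with median-ratio scaling, 0.00715 with quantile normalization, 0.145 with small RNA genes left out and equal sums, 0.000338 with passage as a covariate and 0.416 in the previously identified lines. Bax was 0.0019 with small RNA genes left out, and so below the median of all genes in that setting, and 0.0473 in the newly derived lines, where Trp53 was 0.114 and Ccng1 was -0.21. Bbc3 was -0.0124 in the previously identified lines. Leaving out small RNA genes moved the median of all genes in AI from -0.04 to 0.10, and relative to that median Cdkn1a and Cdkn2b, at 0.73 and 1.00, kept their direction. The count of genes called in AI was 6 without GS9 and GS32 and 21 in the newly derived lines.

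In AN minus AI, Cdkn1a was -0.00507 with quantile normalization, -0.00774 with passage, -0.158 without GS4, GS9 and GS32 and -0.0417 without GS9 and GS32. Trp53inp1 was 0.00292 with small RNA genes left out, 0.00598 without the 3 GS lines and 0.00992 without GS9 and GS32. Cdkn2b was -0.192 and -0.0118 in the same settings, Trp53 was -0.0224 without GS9 and GS32, and Bax was -0.0131 in a fit of 4 groups. Genes called numbered 2 without the 3 GS lines and 1 without GS9 and GS32.

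In the interaction, Ccng1 was 0.0592 with quantile normalization, 0.133 with small RNA genes left out and 0.434 in the previously identified lines. Bax was 0.111, 0.119, 0.0462 without GS9 and GS32 and 0.19 in the newly derived lines. Trp53 was 0.0497 in the newly derived lines, and Trp53inp1 was 0.273 in the previously identified ones. Genes called numbered 7 in the newly derived and 232 in the previously identified lines. In these fits AI9 is the lone AI P line and GS32 the lone AI F line, each assumed to vary like the other groups, and so in the count of 21.

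Leaving out 1 line at a time gave 0 to 1 genes called in AN (1 without AN1, AN6 or AN20) and 0 to 5 in AI (5 without GS9). In AN against AI it gave 0 to 2 (2 without GS9). In the interaction it gave 0 to 651 of 13185 (651 without AI9, when AI P was GS4 and GS9). The ranges that crossed 0 were, in AN, -0.0117 to 0.11 for Trp53 and -0.00793 to 0.0837 for Mdm2, and, in AI, -0.13 to 0.0933 for Trp53inp1. In AN against AI they were -0.051 to 0.0654 for Trp53, -0.103 to 0.0922 for Cdkn1a, -0.0828 to 0.0313 for Trp53inp1, -0.0326 to 0.0416 for Bax and -0.0988 to 0.193 for Cdkn2b, and in the interaction -0.138 to 0.117 for Ccng1 and -0.129 to 0.0245 for Bax. In the interaction, Cdkn1a ranged from 0.761 to 1.18 and Cdkn2b from 1.01 to 1.72.

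Groups of 3 to 5 lines, FPKM without read counts and the absence of protein and cell-type data limit every value. No paired analysis was possible because the groups share no replicate numbers.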
